A study of Mus musculus with 8 samples.

Results

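The islet endothelial cells described here were 288 of 17426 cell barcodes from dispersed mouse pancreatic islets, the cells that line the islet's capillaries. They were chosen on measured values: a barcode had to pass the study's limits (at least 200 genes, at most 5500 genes in replicate 1 or 6500 in replicate 2, mitochondrial UMIs at most 10%), hold at least 1000 UMIs (unique molecular identifiers, 1 per captured transcript), hold UMIs of at least 4 of the 7 endothelial genes Pecam1, Cdh5, Plvap, Kdr, Flt1, Esam and Egfl7, and have less than 5% of its UMIs in the islet hormone genes. The limits on genes, mitochondrial UMIs and total UMIs left 8994 barcodes. The levels of the 7 genes and of the hormones, and the number of cells found, are therefore descriptions and were not tested.

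The study asked how nitric oxide shapes the response of islet cells to inflammatory cytokines. Islets of male C57BL/6J mice aged 12 to 16 weeks, with no transgene in any group, were pooled from 10 mice for each of 2 replicates and divided over 4 conditions as intact islets. They were left untreated, or were kept for 18 h with 10 U/mL of human IL-1β plus 150 U/mL of mouse IFN-γ (called cytokines), with the same cytokines plus 2 mM NMMA, an inhibitor of nitric oxide synthases, or with NMMA alone. The 8 libraries thus hold 4 conditions with 2 pools of mice each, so each condition had n = 2, and the endothelial cells were treated inside the islet, next to β-cells, macrophages and mesenchymal cells that saw the same cytokines.

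Islet capillaries are dense and fenestrated, and they exchange nutrients and hormones with the endocrine cells around them. Endothelial cells elsewhere are known to answer IFN-γ through JAK kinases and interferon regulatory factors, which switch on chemokines, antigen presentation and antiviral GTPases, and IL-1β through NF-κB, which switches on adhesion molecules and cytokines that bring leukocytes to the vessel wall. Their own signature (VEGF receptors, Notch and Tie signaling, capillary genes, SOX and KLF factors) holds the vessel in its resting, organ-specific state, and the endothelial nitric oxide synthase Nos3 makes the nitric oxide that sets vessel tone.

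All 7 genes of the rule were found in 244 of the 288 cells, 6 in 30, 5 in 11 and 4 in 3. The 3 cells just inside the threshold had a median of 1122 UMIs, and 6 barcodes just outside it, with 3 of the genes, had a median of 6260. Hormones kept out 4 barcodes with 4 or more of the genes, and the minimum of 1000 UMIs kept out 8. Genes that the rule did not use point to the same cell type: 270 of the 288 cells held UMIs of at least 4 of 7 further endothelial genes. Hormone UMIs had a median of 0.363% and a highest value of 2.32% in these cells, against a median of 37.6% in β-cells.

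In untreated islets the endothelial cells made up 47 of 2107 kept barcodes in replicate 1 (2.23%, exact Clopper-Pearson 95% interval 1.64 to 2.96) and 51 of 1120 in replicate 2 (4.55%, 3.41 to 5.94). With NMMA alone they made up 52 of 976 (5.33%, 4.0 to 6.93) and 49 of 1061 (4.62%, 3.44 to 6.06). With the cytokines the counts were 16 of 1292 (1.24%, 0.710 to 2.0) and 23 of 767 (3.0%, 1.91 to 4.47), and with the cytokines and NMMA 16 of 897 (1.78%, 1.02 to 2.88) and 34 of 774 (4.39%, 3.06 to 6.08). Within each replicate the share was lowest with the cytokines, and replicate 1 lay below replicate 2 in every condition but NMMA. The intervals cover counting error only. The sum of endothelial UMIs per library ran from 215596 to 689305, with a median of 8856 to 16590.5 UMIs per cell, so the cytokine libraries rest on fewer cells (16 to 34) than the others (47 to 52).

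**Figure D1:**
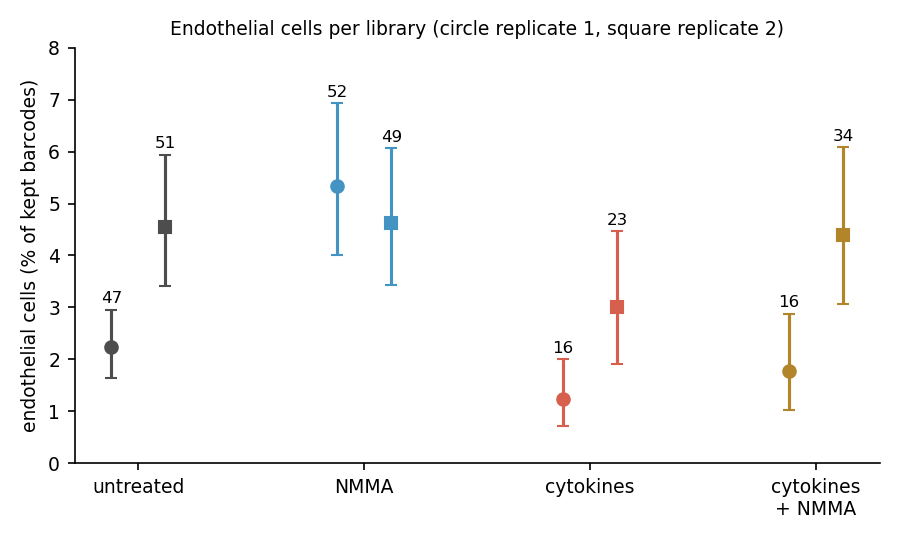
Endothelial cells as a percentage of kept barcodes in each library, by condition, with exact 95% intervals for counting error and the number of cells above each point; circles are replicate 1 and squares replicate 2. The cytokine libraries held 16 and 23 cells and the untreated libraries 47 and 51.

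Part of these barcodes also carried RNA of the cells that wrap capillaries. Of the 288, 139 (48.3%) held UMIs of at least 2 of 7 mural genes, genes of pericytes and vascular smooth muscle chosen after the data were seen (Higd1b, Abcc9, Kcnj8, Notch3, Ndufa4l2, Cspg4 and Pdgfrb), against 0.156% of β-cells. The share ran from 42.3% to 56.3% of the endothelial cells of a library. These 139 had a median of 17325 UMIs and the other 149 a median of 6648, and no doublet caller was run. Both sets held the endothelial genes. Levels are in CPM, UMIs per 1000000 summed endothelial UMIs, with a library's sum scaled by TMM, edgeR's trimmed mean method. Where the 139 are set against the 149, CPM are per 1000000 UMIs of that set, pooled over libraries and not TMM-scaled. Without cytokines Pecam1 was at 939 against 1222 CPM and Cdh5 at 762 against 1023 CPM in the 139 and the 149. Mgp, which was chosen after its values were seen, was at 10708 against 33.8 CPM. The summed level of the mural list ran from 934 to 1099 CPM in libraries without cytokines and from 543 to 1264 CPM with them. Genes that sat mainly in the mural-marker cells are named as such below, and the counts of calls are also given without those cells.

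Markers of further cell types were lower. Macrophage markers summed to 1.41 to 7.70 CPM without cytokines and to 2.87 to 944 CPM with them, where the highest value belonged to cytokines with NMMA replicate 1, the library with the 1 endothelial barcode that held 4 or more macrophage genes. Leukocyte markers reached 1.59 CPM without and 173 CPM with cytokines, with Cd3e, Cd3g, Cd79a, Nkg7 and Flt3 at 0, and all 5 erythroid genes were at 0 in every library. Mesenchymal markers summed to 682 to 1519 CPM without and 414 to 1255 CPM with cytokines, and 48 cells held at least 4 of those 7 genes. Ductal markers summed to 78.8 to 712 CPM without and 4.94 to 50.2 CPM with cytokines, most of it Spp1, acinar markers to at most 82.8 and 50.2 CPM, and Schwann cell markers to at most 9.62 and 20.1 CPM. Insulin RNA was present at 3770 to 4307 CPM without and 2010 to 2864 CPM with cytokines. If other β-cell RNA came along with that insulin in the proportions of the same library's β-cells, it would account for 6.14 of 18833 UMIs of Cxcl10, 10.4 of 7611 of Gbp2 and 3.22 of 277 of Nos2 in the cytokine libraries. Of all barcode sequences, 34 occurred in more than 1 library, and 1 of them belonged to an endothelial cell, with none shared between endothelial cells of different libraries.

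Among vessel types the cells held capillary genes at the highest summed level, 7037 to 8632 CPM in the 4 libraries without cytokines, with Fabp4 at 2963 to 3858 CPM, Esm1 at 2087 to 2718 and Gpihbp1, which carries lipoprotein lipase across capillaries, at 935 to 1497. The arterial list summed to 575 to 781 CPM there, with Gja4, Efnb2, Unc5b, Hey1 and Sox17 present and Gja5 and Fbln5 at 0 UMIs. The venous list summed to 166 to 218 CPM, with the venule gene Ackr1 at 0, and the lymphatic list to 196 to 256 CPM, most of it the VEGF receptor Flt4, with Mmrn1 and Ccl21a at 0. The capillary genes Car4, Cd36 and Aplnr had only 9, 14 and 4 UMIs in all, and the proliferation genes Mki67 and Top2a had 0.

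The cytokines changed many endothelial genes, both with and without NMMA. UMIs were summed over the endothelial cells of each library and tested with edgeR's quasi-likelihood test over 7547 genes, with Benjamini-Hochberg adjusted p under 0.05 as the call. Values after ± are called SE and were worked back from this test. Each is the absolute log2 change divided by the square root of its F statistic, not an SE estimated directly. Against untreated islets, the cytokines raised 336 genes (4.45% of those tested) and lowered 122 (1.62%), and the cytokines with NMMA raised 375 (4.97%) and lowered 128 (1.70%). Both comparisons share the untreated libraries. With the replicate number as a block, which pairs libraries from the same pool of mice, the calls were 513 and 243 for the cytokines and 519 and 248 for the cytokines with NMMA. The 4 libraries with cytokines against the 4 without, in the same model, gave 603 higher (7.99%) and 347 lower genes (4.60%), and this contrast carries most of the values below. These shares over all genes belong beside each count of list members below that comes from this contrast.

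The direction of the balance depends on the scaling. TMM scaling left the median log2 change of all genes at -0.04 in this contrast, and scaling by total UMIs moved it to -0.26, with 450 higher and 707 lower calls, so that 38.9% of calls were higher in place of 63.5%. Against untreated islets the share of higher calls went from 73.4% to 57.1% for the cytokines (median change -0.02 to -0.21) and from 74.6% to 54.4% for the cytokines with NMMA (-0.03 to -0.26). In the 149 cells with at most 1 mural gene, 4153 genes could be tested and 296 were higher and 121 lower. Of the 603 higher genes 453 could be tested there, of which 448 had the same sign and 286 were called, and of the 347 lower genes 232 could be tested, all with the same sign and 99 called. Without the untreated replicate 1 library the cytokines gave 266 calls in all and the cytokines with NMMA 290, and without cytokines replicate 2 the cytokines gave 268. Where the call of a gene below was lost on leaving out 1 library, the highest adjusted p so reached is given with the library left out and, where there was more than 1, the number of such libraries.

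Chemokines gave the largest increases. Cxcl9 (chr5:92321347-92328079 of GRCm38, identifier ENSMUSG00000029417), which draws T cells through CXCR3, had 0 UMIs in all 4 libraries without cytokines, 5702 and 7807 CPM with the cytokines and 11110 and 16633 CPM with the cytokines and NMMA in replicates 1 and 2. Set against 3 counts over the libraries without cytokines, this was at least 9078-fold higher (adjusted p = 1.44e-11). Cxcl10 (chr5:92346638-92348889), a ligand of the same receptor, was at 3.85 and 0 CPM untreated, 4.78 and 0 with NMMA alone, 12224 and 14670 with the cytokines and 14627 and 18254 with the cytokines and NMMA (log2 change 12.65 ± 0.52, adjusted p = 2.13e-06). No library with cytokines overlapped one without for either gene. How often this held over all genes was not counted, so non-overlap is a description here and below. Every endothelial cell of the cytokine libraries gave a UMI of Gbp2 after each cell was thinned to 4000 UMIs (15 of 15, 23 of 23, 16 of 16 and 31 of 31), and Cxcl9 was found in 82.6% to 100% of them, against 8.27% to 13.5% of β-cells at the same depth. Median depths before thinning were 12687.5 to 16590.5 UMIs in these endothelial cells and 22916 to 28657.5 in those β-cells.

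Of 28 chemokine and cytokine genes 18 could be tested, and 11 rose and none fell, with a median log2 change of 6.35 beside -0.04 over all genes. Cxcl1, a neutrophil chemokine, was at 1.93 and 9.85 CPM untreated, 1.59 and 1.79 with NMMA alone, 4246 and 3210 with the cytokines and 1661 and 2942 with the cytokines and NMMA (log2 change 9.66 ± 0.37, adjusted p = 1.39e-09), and Il6 (chr5:30013114-30019981), the interleukin of the acute phase, at 3.85 and 2.81 CPM untreated, 7.96 and 5.37 with NMMA alone, 2651 and 2136 with the cytokines and 712 and 1727 with the cytokines and NMMA (log2 change 8.43 ± 0.37, adjusted p = 6.41e-09). For both genes every cytokine library lay above every library without cytokines. Both were higher in the mural-marker cells than in the other cells with cytokines, Cxcl1 at 3427 against 1310 CPM and Il6 at 2240 against 469.5 CPM. Cxcl3 had 0 UMIs without cytokines and 1017 and 6966 CPM with the cytokines and 2943 and 4478 with the cytokines and NMMA, at least 3495-fold higher and short of the threshold (adjusted p = 0.0938, or 0.181 with the replicate block), though past it by DESeq2 and without either of the libraries with the cytokines alone. Ccl2, the monocyte chemokine, differed between replicates, at 86.6 and 66.1 CPM untreated, 9.56 and 71.5 with NMMA alone, 799.8 and 6352 with the cytokines and 1173 and 8099 with the cytokines and NMMA (adjusted p = 0.0641, or 0.029 with the replicate block). The files of the replicates list different gene sets (31053 and 32285 genes), and the part of that in such differences was not tested.

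**Figure D2:**
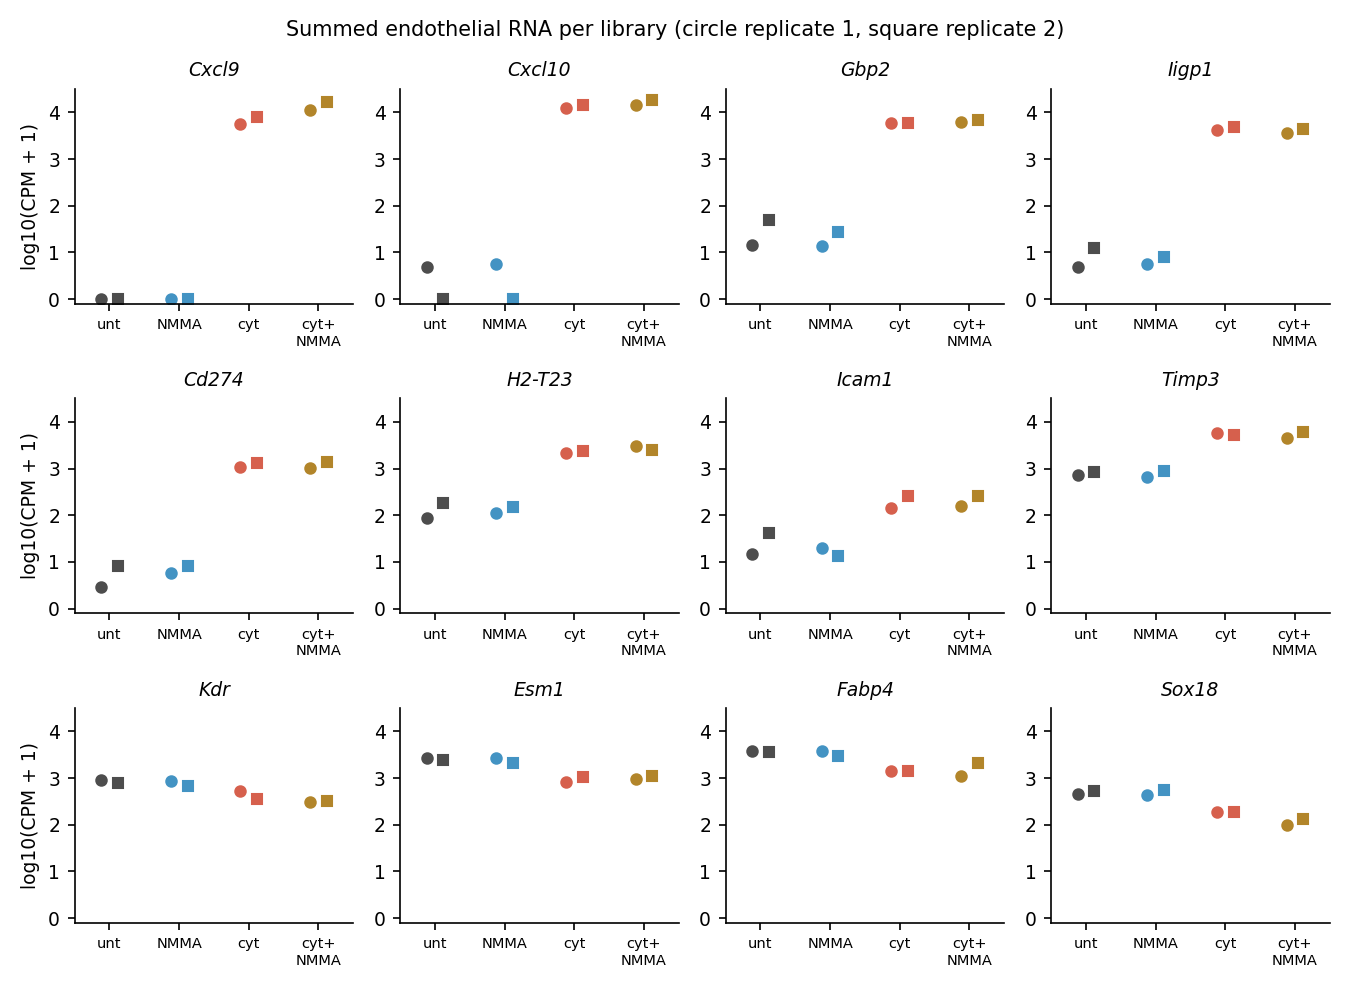
Summed endothelial RNA of 12 genes in each of the 8 libraries, as log10(CPM + 1), by condition (unt, untreated; cyt, cytokines); circles are replicate 1 and squares replicate 2. Chemokine, GTPase, MHC and checkpoint genes sit higher in all 4 cytokine libraries, and Kdr, Esm1, Fabp4 and Sox18 lower.

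Adhesion molecules moved less than chemokines. Icam1 (chr9:21015985-21028817, identifier ENSMUSG00000037405), the leukocyte integrin ligand, was at 13.5 and 40.8 CPM untreated, 19.1 and 12.5 with NMMA alone, 143 and 258 with the cytokines and 159.7 and 261 with the cytokines and NMMA (log2 change 3.29 ± 0.33, adjusted p = 2.35e-05). Its lowest cytokine library lay above its highest library without cytokines, and after thinning it was found in 33.3% to 60.9% of endothelial cells in the cytokine libraries. Icam2, a constitutive endothelial ligand of the same integrins, was at 156 to 226 without and 307 to 479 CPM with cytokines (log2 change 1.03 ± 0.19, adjusted p = 0.00128). The other leukocyte adhesion molecules of activated endothelium were hardly found: Vcam1 had 10 UMIs, and Sele and Selp (E- and P-selectin) 3 each, in all 288 cells, so no change could be seen at this depth. Only 5 of the 13 adhesion genes could be tested. Mcam was at 340.4 to 414 without and 164 to 399.9 CPM with cytokines (adjusted p = 0.0573, or 0.00671 with the block). Cd47 was at 358 to 469.9 without and 428 to 679.8 CPM with cytokines (adjusted p = 0.453).

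Interferon-induced GTPases rose in nearly all members that could be tested. All 9 testable immunity-related GTPases of 10 listed rose (median 7.98, or 6.73 with a gene at 0 set to its bound), as did 8 of 9 testable guanylate-binding proteins of 11 (median 6.48, or 6.08), proteins that attack membranes around intracellular microbes. Gbp2 (chr3:142620602-142638008) was at 13.5 and 49.2 CPM untreated, 12.7 and 26.8 with NMMA alone, 5801 and 5858 with the cytokines and 6333 and 6828 with the cytokines and NMMA (log2 change 7.92 ± 0.39, adjusted p = 1.95e-06). Iigp1 was at 3.85 and 11.2 CPM untreated, 4.78 and 7.15 with NMMA alone, 4231 and 4907 with the cytokines and 3668 and 4415 with the cytokines and NMMA (log2 change 9.23 ± 0.26, adjusted p = 7.46e-13). Igtp was at 1.93 to 11.2 without and 1309 to 1378 CPM with cytokines (log2 change 7.98 ± 0.23, adjusted p = 7.46e-13). Gbp4 was at 0 to 4.22 without and 1168 to 1674 CPM with cytokines (log2 change 9.19 ± 0.40, adjusted p = 2.71e-09). For each of these genes the 4 cytokine libraries lay close together, far above every library without cytokines. Some members had almost no RNA without cytokines, so that the ratio rests on few counts: Gbp5 was higher 1632 times (counting interval 292 to 64520), Gm4951 877 times (counting interval 156 to 34705), and Gbp10 and Tgtp1, with 0 UMIs there, at least 20-fold and 106-fold. The unnamed family members Gm4841 and F830016B08Rik were higher 986 times (counting interval 176 to 39043) and 628 times (counting interval 173 to 5197). Gbp6 differed between replicates, at 0 and 2.81 CPM untreated, 0 and 0 with NMMA alone, 109 and 1016 with the cytokines and 82.1 and 801 with the cytokines and NMMA (adjusted p = 0.123, or 9.38e-17 with the block). These genes have near-identical neighbors (Tgtp1 and Tgtp2, the Gm4841 group), so the split of reads among them is uncertain. The call of Gm4841 against untreated was lost in some sets of 7 libraries (cytokines, adjusted p = 0.0787 without untreated replicate 1, lost without any 1 of 4 libraries, and cytokines with NMMA, adjusted p = 0.0756 without untreated replicate 1, lost without any 1 of 4 libraries), and that of Tgtp1 with the cytokines and NMMA likewise (adjusted p = 0.082 without untreated replicate 1, lost without any 1 of 2 libraries).

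Icam1, Cxcl9 and Tap1 had the largest called increases of the adhesion, chemokine and MHC class I lists. Tgtp1, a GTPase gene with 0 UMIs without cytokines, led its list once genes on a left-out chromosome or without a listed promoter were passed over. The promoters of these 4 genes are shown because factors of the interferon path read short letter patterns there. Each runs from 250 bases before to 50 bases after the RefSeq start site (GRCm38.p6), and capitals mark TTCNNNGAA, the GAS pattern, and GAAANNGAA, the core of the ISRE pattern, searched on both strands. Positions count from the start site.
Icam1: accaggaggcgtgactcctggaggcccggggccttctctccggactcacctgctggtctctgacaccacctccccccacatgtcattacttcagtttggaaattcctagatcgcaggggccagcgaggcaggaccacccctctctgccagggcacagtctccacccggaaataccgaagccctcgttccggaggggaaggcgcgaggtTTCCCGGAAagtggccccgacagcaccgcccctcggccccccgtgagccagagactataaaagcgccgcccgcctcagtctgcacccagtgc
Cxcl9: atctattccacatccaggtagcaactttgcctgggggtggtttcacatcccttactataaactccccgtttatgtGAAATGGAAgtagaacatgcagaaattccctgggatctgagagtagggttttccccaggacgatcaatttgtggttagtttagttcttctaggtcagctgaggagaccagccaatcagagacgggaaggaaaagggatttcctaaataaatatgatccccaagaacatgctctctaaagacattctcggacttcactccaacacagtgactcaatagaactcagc
Tap1: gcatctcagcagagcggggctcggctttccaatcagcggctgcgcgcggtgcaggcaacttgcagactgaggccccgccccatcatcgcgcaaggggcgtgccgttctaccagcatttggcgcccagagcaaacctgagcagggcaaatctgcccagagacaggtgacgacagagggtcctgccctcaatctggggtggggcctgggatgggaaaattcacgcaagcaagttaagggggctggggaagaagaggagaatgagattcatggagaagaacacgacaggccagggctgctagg
Tgtp1: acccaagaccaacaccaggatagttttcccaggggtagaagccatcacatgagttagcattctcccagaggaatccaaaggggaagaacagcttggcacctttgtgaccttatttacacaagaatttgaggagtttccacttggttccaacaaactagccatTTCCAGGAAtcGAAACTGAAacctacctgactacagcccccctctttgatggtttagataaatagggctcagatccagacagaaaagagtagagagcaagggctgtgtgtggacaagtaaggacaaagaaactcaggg

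The GAS pattern is its own reverse complement, so every GAS match reads on both strands. The Icam1 window (chr9:21015690-21015989, plus strand) held GAS at -42 to -34. The Cxcl9 window (chr5:92328030-92328329, minus strand) held the ISRE core at -175 to -167. The Tgtp1 window (chr11:48992197-48992496, minus strand) held GAS at -88 to -80 and the ISRE core at -77 to -69, with 2 bases between them, and the Tap1 window (chr17:34187306-34187605, plus strand) held neither. Neither pattern overlaps the other in these windows. The κB consensus was searched only as GGG[AG]NN[CT][CT]CC, where brackets hold the bases allowed, and was found in none of the 4. Sites that depart from these letters were not searched for, so this does not show that the promoters lack κB sites. Of 32851 RefSeq promoters of this length, 8.30% held GAS, 8.56% the ISRE core and 8.46% the κB consensus, so a match is a description of these letters and not a binding site.

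Signal transducers of the interferon path rose with their targets. Of 23 listed genes of the JAK, STAT, IRF and SOCS families 17 could be tested, and 12 rose and none fell (median 2.08). Irf1, an interferon regulatory factor that IFN-γ induces, was at 38.5 and 70.3 CPM untreated, 66.9 and 60.8 with NMMA alone, 1323 and 1137 with the cytokines and 830.4 and 1071 with the cytokines and NMMA (log2 change 4.18 ± 0.21, adjusted p = 5.41e-10). Socs1, the inhibitor of JAK kinases, was at 7.7 and 7.03 CPM untreated, 11.2 and 3.58 with NMMA alone, 252 and 322 with the cytokines and 369.6 and 379 with the cytokines and NMMA (log2 change 5.42 ± 0.26, adjusted p = 3.63e-10). Irf7 was at 12.7 to 59 without and 415 to 586 CPM with cytokines (log2 change 3.85 ± 0.41, adjusted p = 0.000594). Nlrc5, the activator of MHC class I genes, was at 0 to 3.58 without and 50.2 to 74 CPM with cytokines, higher 79.9 times (counting interval 21.4 to 671). The kinase Jak1 was at 243 to 277 without and 286 to 443 CPM with cytokines (adjusted p = 0.275). Irf2 was at 78.9 to 174 without and 146 to 212 CPM with cytokines (adjusted p = 0.071, or 0.00519 with the block). The receptor chains Ifngr1 and Ifngr2 were at 87.6 to 112 without and 50.2 to 88.9 CPM with cytokines and at 111 to 156 without and 94.8 to 119 CPM with cytokines (adjusted p = 0.107 and 0.332).

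Every one of the 29 testable antiviral genes of 33 listed rose (median 3.47). Zbp1, a sensor of Z-form nucleic acid, was at 1.93 and 2.81 CPM untreated, 1.59 and 3.58 with NMMA alone, 321 and 428 with the cytokines and 369.6 and 469.8 with the cytokines and NMMA (log2 change 7.18 ± 0.29, adjusted p = 5e-11). Bst2 (tetherin), which holds budding virus at the membrane, was at 102 to 189.6 without and 1293 to 1841 CPM with cytokines (log2 change 3.46 ± 0.22, adjusted p = 8.03e-09). The interferon-induced Ifit3 was at 0 to 12.7 without and 301 to 463 CPM with cytokines (log2 change 5.82 ± 0.43, adjusted p = 9.65e-06). Ifit2 was at 0 to 7.15 without and 151 to 181 CPM with cytokines (log2 change 5.68 ± 0.35, adjusted p = 4.66e-09), and Ifit3b, a near copy of Ifit3 with which it may share reads, was higher 85.9 times (counting interval 28.7 to 422). Under total-UMI scaling 27 of the 29 were called higher. Ubd, a ubiquitin-like modifier, had 0 UMIs without cytokines and was at least 122-fold higher (adjusted p = 1.08e-07).

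Antigen presentation by MHC class I rose nearly as a whole, with 19 of 21 genes called higher (median 2.93) and the same 19 of 21 count under total-UMI scaling and in the 149 cells with at most 1 mural gene. H2-T23, which encodes the nonclassical molecule Qa-1, was at 86.6 and 179 CPM untreated, 108 and 147 with NMMA alone, 2172 and 2375 with the cytokines and 3007 and 2490 with the cytokines and NMMA (log2 change 4.26 ± 0.22, adjusted p = 2.12e-09). Tap1 (chr17:34187553-34197225), 1 chain of the peptide transporter, was at 7.7 and 28.1 CPM untreated, 12.7 and 25 with NMMA alone, 691 and 606 with the cytokines and 739 and 574 with the cytokines and NMMA (log2 change 5.09 ± 0.30, adjusted p = 2.9e-08). The immunoproteasome subunit Psmb8 was at 60.5 to 108 without and 1241 to 1820 CPM with cytokines (log2 change 4.21 ± 0.23, adjusted p = 1.95e-09). The peptide editor Tapbpl was at 0 to 13.5 without and 126 to 198 CPM with cytokines (log2 change 4.36 ± 0.37, adjusted p = 1.15e-06). H2-Q7, which may share reads with other H2-Q genes, was at 62.1 to 121 without and 1109 to 1521 CPM with cytokines (log2 change 3.83 ± 0.21, adjusted p = 2.3e-09). The chaperones Calr and Pdia3 were at 334 to 619.8 without and 472 to 1017 CPM with cytokines and 184 to 325 without and 306 to 419.7 CPM with cytokines (adjusted p = 0.225 and 0.114, or 0.011 and 0.0158 with the block).

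MHC class II genes were scarce, with 2 of 10 testable. H2-Ab1 was at 5.77 and 8.44 CPM untreated, 12.7 and 5.37 with NMMA alone, 29.6 and 11.5 with the cytokines and 164 and 74.9 with the cytokines and NMMA (log2 change 2.45 ± 0.48, adjusted p = 0.00222). Its highest value came from cytokines with NMMA replicate 1, where macrophage markers summed to 944 CPM. The log2 change was 2.18 without that library and 1.84 (adjusted p = 0.00754) without barcodes that held 4 or more macrophage or mesenchymal genes. Cd74, the invariant chain, was at 0 and 1.41 CPM untreated, 0 and 0 with NMMA alone, 4.94 and 0 with the cytokines and 256 and 29.5 with the cytokines and NMMA (adjusted p = 0.606, or 0.028 with the block), and its highest value came from the same library. Molecules that steer T cells were clearer, with all 7 testable of 15 listed called higher (median 2.71). Cd274, which encodes PD-L1, was at 1.93 and 7.03 CPM untreated, 4.78 and 7.15 with NMMA alone, 1061 and 1335 with the cytokines and 1004 and 1396 with the cytokines and NMMA (log2 change 7.74 ± 0.28, adjusted p = 1.44e-11). Ido1, the tryptophan-degrading enzyme, had 0 UMIs in the 4 libraries without cytokines and was at least 61.2-fold higher. Lgals9 was at 13.5 to 37.5 without and 137 to 327 CPM with cytokines (log2 change 2.85 ± 0.31, adjusted p = 3.45e-05). The death receptor Fas was at 3.58 to 38.5 without and 64.2 to 129 CPM with cytokines (log2 change 2.71 ± 0.36, adjusted p = 0.000134). Cd40, the receptor for T-cell help, was at 30.3 to 73.1 without and 98.7 to 159 CPM with cytokines (log2 change 1.59 ± 0.24, adjusted p = 0.00022).

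**Figure D3:**
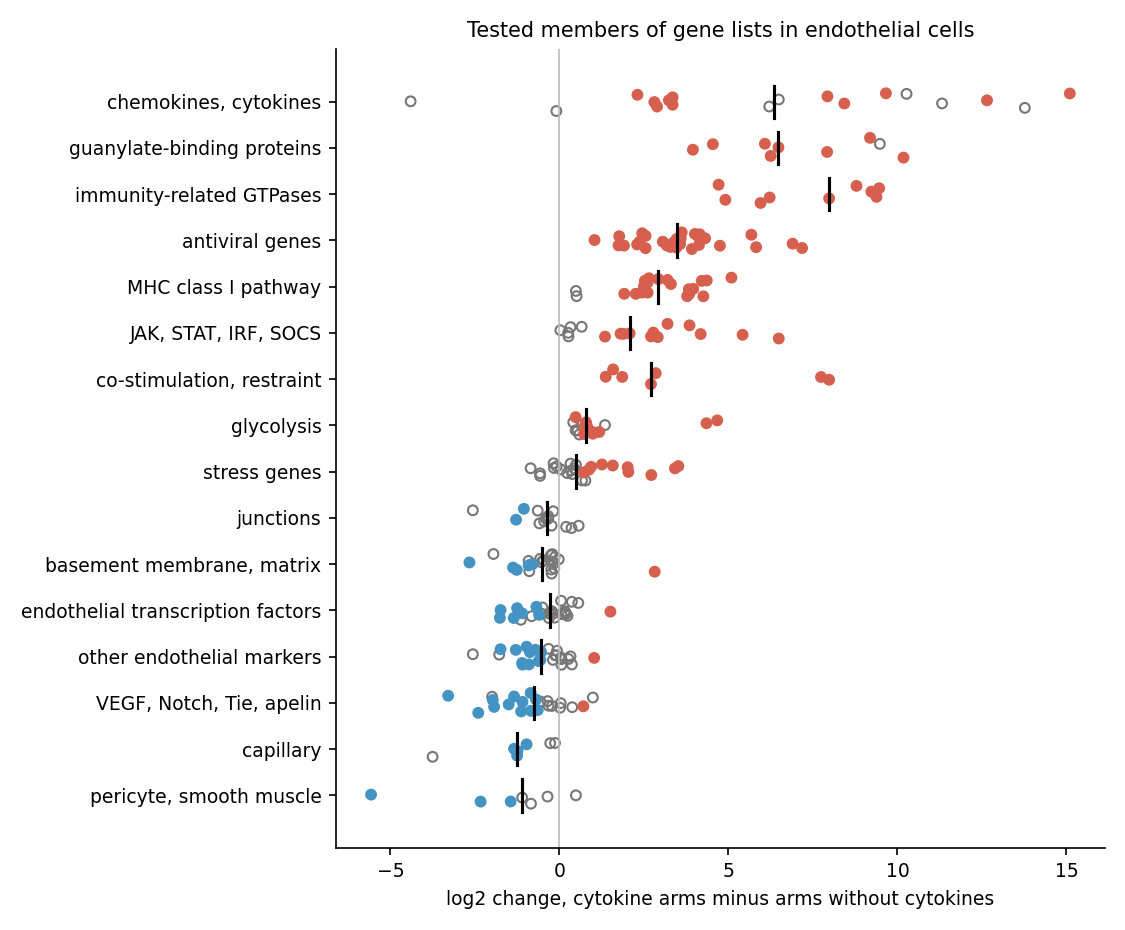
Log2 change of each tested gene of 16 lists, cytokine arms minus arms without, with a bar at the median of the list; red and blue points passed the threshold as higher and lower, and open points did not. Interferon-linked lists lie to the right (medians 2.08 to 7.98) and endothelial, VEGF and capillary lists to the left (-0.54, -0.76 and -1.24).

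Genes of the NF-κB and IL-1 path rose in part. Of 18 testable genes of 21 listed 9 rose (median 0.72), and 2 of 12 testable genes did so in the 149 cells with at most 1 mural gene. Ccrl2, a chemokine-presenting receptor, was at 5.77 and 5.63 CPM untreated, 6.37 and 8.94 with NMMA alone, 118 and 135 with the cytokines and 164 and 161 with the cytokines and NMMA (log2 change 4.40 ± 0.26, adjusted p = 3.31e-09). Nfkbiz, an inducible IκB protein, was at 23.1 to 40.8 without and 133 to 175 CPM with cytokines (log2 change 2.39 ± 0.23, adjusted p = 1.1e-06). Tnfaip8 was at 14.3 to 25 without and 31.9 to 84 CPM with cytokines (log2 change 1.71 ± 0.32, adjusted p = 0.00119). The kinase Ripk2 was at 5.77 to 22.5 without and 27.4 to 49.9 CPM with cytokines (log2 change 1.44 ± 0.39, adjusted p = 0.0226), a call that was lost in some sets of 7 libraries (adjusted p = 0.191 without cytokines with NMMA replicate 2, lost without any 1 of 6 libraries). The subunits Rela and Relb were at 92.4 to 157 without and 128 to 152 CPM with cytokines and 44.6 to 67.5 without and 54.6 to 83.9 CPM with cytokines (adjusted p = 0.352 and 0.653). Of 9 testable receptor and adaptor genes, Myd88 was at 35.8 to 57.3 without and 88.9 to 119 CPM with cytokines (log2 change 1.18 ± 0.23, adjusted p = 0.00166). Irak3, an inhibitor of IL-1 signaling, was at 7.15 to 17.3 without and 29.5 to 59.3 CPM with cytokines (log2 change 2.17 ± 0.37, adjusted p = 0.000577). Il1r1, the IL-1 receptor, fell, at 67.4 and 35.2 CPM untreated, 23.9 and 32.2 with NMMA alone, 9.87 and 8.61 with the cytokines and 13.7 and 18.2 with the cytokines and NMMA (log2 change -1.59 ± 0.39, adjusted p = 0.0116; adjusted p = 0.0762 without cytokines replicate 2, lost without any 1 of 2 libraries). Without cytokines Il1r1 was at 53.3 against 14.3 CPM in the mural-marker and the other cells.

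Cell death and complement genes also rose. Of 17 testable death genes of 21 listed, 10 were higher (median 0.85): the inflammatory caspase Casp4 was at 1.93 to 12.7 without and 102 to 169 CPM with cytokines (log2 change 4.15 ± 0.32, adjusted p = 7.5e-08). Casp12 was at 0 to 7.15 without and 36.5 to 60.3 CPM with cytokines (log2 change 4.17 ± 0.53, adjusted p = 3.38e-05). The necroptosis effector Mlkl was at 19.2 to 28.7 without and 135 to 205 CPM with cytokines (log2 change 2.65 ± 0.22, adjusted p = 2.21e-07). The pore-forming Gsdmd was at 16.9 to 26.9 without and 45.9 to 63.9 CPM with cytokines (log2 change 1.39 ± 0.28, adjusted p = 0.00276). Bax and Xiap were at 331 to 439 without and 301 to 583 CPM with cytokines and 108 to 158 without and 91.2 to 148 CPM with cytokines (adjusted p = 0.455 and 0.562). Of 6 testable complement genes of 15 listed 5 rose (median 4.08, or 3.37 with a gene at 0 set to its bound), and these sat mainly in the mural-marker cells. With cytokines the C1 protease gene C1s1 was at 351 against 17.1 CPM in the mural-marker and the other cells, C1ra at 82.6 against 4.29 CPM and the C1 inhibitor Serping1 at 1285 against 101 CPM. Over all cells C1s1 was at 1.79 to 5.77 without and 227 to 306 CPM with cytokines (log2 change 6.12 ± 0.28, adjusted p = 1.98e-10), and C1ra was higher 74.9 times (counting interval 20 to 629.7). Serping1 was at 209.6 to 266 without and 657 to 1483 CPM with cytokines (log2 change 2.05 ± 0.20, adjusted p = 1.31e-06). Cfb, complement factor B, was at least 26-fold higher (adjusted p = 0.0475; adjusted p = 1 without cytokines replicate 2, lost without any 1 of 5 libraries).

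Few genes of nitric oxide synthesis and supply changed. Of 14 testable genes of 22 listed 2 rose and 2 fell, beside 7.99% higher and 4.60% lower over all genes, counts too small to set the list apart. Nos2 (chr11:78920787-78960254), the inducible synthase, was at 0 and 0 CPM untreated, 3.19 and 1.79 with NMMA alone, 74 and 184 with the cytokines and 155 and 372 with the cytokines and NMMA, or 277 UMIs with against 3 without cytokines, which is 184 times (counting interval 62.4 to 899.6) (adjusted p = 0.000224). With cytokines it was at 306 against 15 CPM in the mural-marker and the other cells, so little of it was read in cells without mural RNA. After thinning to 4000 UMIs, 13.3% and 21.7% of endothelial cells with the cytokines and 31.3% and 35.5% with the cytokines and NMMA gave a UMI of Nos2 in replicates 1 and 2, against 31.6%, 30.6%, 54.4% and 45.4% of the β-cells of the same libraries. The endothelial share was the lower one in each library, but its exact 95% interval held the β-cell share in all 4. Nos3, the endothelial synthase, was at 61.6 and 59.1 CPM untreated, 66.9 and 68 with NMMA alone, 24.7 and 34.5 with the cytokines and 36.5 and 47.7 with the cytokines and NMMA (log2 change -0.80 ± 0.24, adjusted p = 0.035). The Nos3 call was lost without any 1 of the 8 libraries (highest adjusted p = 0.124, without cytokines replicate 1). Cav1, the caveolar protein that binds this synthase, was at 84.7 and 122 CPM untreated, 100.3 and 96.6 with NMMA alone, 24.7 and 34.5 with the cytokines and 50.2 and 38.6 with the cytokines and NMMA (log2 change -1.48 ± 0.24, adjusted p = 0.000444). Gch1, which makes its cofactor, was at 26.8 to 40.8 without and 74.7 to 128 CPM with cytokines (log2 change 1.42 ± 0.23, adjusted p = 0.000457). Ddah2 and Cyb5r3 were at 154 to 238 without and 83.3 to 191 CPM with cytokines and 276 to 314 without and 168 to 260.1 CPM with cytokines (adjusted p = 0.263 and 0.0949, the latter 0.0327 with the block).

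Stress genes rose in part, with 10 of 25 called higher and none lower (median 0.49), and 8 higher and 2 lower under total-UMI scaling. Sod2, the mitochondrial superoxide dismutase, was at 146 and 165 CPM untreated, 102 and 141 with NMMA alone, 982 and 1846 with the cytokines and 1779 and 1723 with the cytokines and NMMA (log2 change 3.52 ± 0.21, adjusted p = 4.66e-09). The metallothionein Mt2 was at 7.7 and 25.3 CPM untreated, 54.2 and 62.6 with NMMA alone, 212 and 546 with the cytokines and 319 and 293 with the cytokines and NMMA (log2 change 3.42 ± 0.35, adjusted p = 0.000127). The stress factor Atf3 was at 11.6 to 47.8 without and 120.3 to 148 CPM with cytokines (log2 change 2.04 ± 0.28, adjusted p = 7.58e-05). Trib3 was at 2.81 to 20.7 without and 31.8 to 63.9 CPM with cytokines (log2 change 2.72 ± 0.48, adjusted p = 0.000931). Ddit3, the CHOP factor of the unfolded protein response, was at 38.5 to 51.9 without and 69.1 to 119 CPM with cytokines (log2 change 0.94 ± 0.21, adjusted p = 0.00633). The heat-shock genes that mark protein damage did not pass the test: Hspa1a was at 53.9 to 66.9 without and 44.4 to 115 CPM with cytokines (adjusted p = 0.68). Hspa1b, a near copy, was at 32.7 to 67.5 without and 9.87 to 83.3 CPM with cytokines (adjusted p = 0.903). Dnajb1 was at 50 to 66.2 without and 51.7 to 98.7 CPM with cytokines (adjusted p = 0.388). Hspa8 was at 1352 to 1661 without and 1683 to 2099 CPM with cytokines (adjusted p = 0.164). Hsph1 was at 129 to 240.5 without and 54.3 to 181 CPM with cytokines (adjusted p = 0.485, or 0.013 with the block). Hsp90ab1 was at 1805 to 2176 without and 1807 to 2317 CPM with cytokines (adjusted p = 0.927). The values with and without cytokines overlapped for each of these genes but Hspa8. Hmox1, heme oxygenase, was at 61.6 and 109.7 CPM untreated, 206 and 193 with NMMA alone, 93.8 and 138 with the cytokines and 392 and 166 with the cytokines and NMMA (adjusted p = 0.415), and of the contrasts with untreated islets that of the cytokines with NMMA passed the test (log2 change 1.64 ± 0.40, adjusted p = 0.0302). Defb1, an epithelial defensin, could not be tested.

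Endothelial genes fell in part. Of the 7 genes that chose the cells, given without a test, Kdr (VEGF receptor 2) was at 918 and 789 CPM untreated, 852 and 679.5 with NMMA alone, 523 and 356 with the cytokines and 306 and 325 with the cytokines and NMMA, so that the sets with and without cytokines did not overlap. Pecam1 was at 919 to 1072 without and 589 to 869 CPM with cytokines. Plvap, the diaphragm protein of fenestrae, was at 1041 to 1830 without and 457 to 1219 CPM with cytokines. Cdh5, VE-cadherin, was at 693 to 871 without and 648 to 948 CPM with cytokines. Flt1 was at 2587 to 3663 without and 2140 to 2982 CPM with cytokines. Esam was at 678 to 897 without and 451 to 770.2 CPM with cytokines. Egfl7 was at 1415 to 1892 without and 1054 to 1743 CPM with cytokines. The sets of Pecam1 did not overlap either, while those of the other 5 did. Non-overlap was not counted over all genes, and these 7 genes chose the cells, so their values are descriptions only. Of 25 further endothelial genes all could be tested, and 11 fell and 1, Icam2, rose (median -0.54). Sox18 (chr2:181669836-181671640), a factor of vessel development, was at 452 and 528 CPM untreated, 433 and 562 with NMMA alone, 188 and 187 with the cytokines and 95.8 and 134 with the cytokines and NMMA (log2 change -1.74 ± 0.18, adjusted p = 2.86e-06). It was found in 80% to 86.0% of endothelial cells without and 12.5% to 33.3% with cytokines at 4000 UMIs. Cd93 was at 589 and 568 CPM untreated, 577 and 570.5 with NMMA alone, 409.8 and 238 with the cytokines and 146 and 195 with the cytokines and NMMA (log2 change -1.29 ± 0.19, adjusted p = 0.000149). Mmrn2, its matrix ligand, was at 216 to 379 without and 116 to 146 CPM with cytokines (log2 change -1.10 ± 0.20, adjusted p = 0.00119). The angiopoietin receptor Tek was at 75.1 to 116 without and 28.7 to 64.2 CPM with cytokines (log2 change -1.09 ± 0.26, adjusted p = 0.00901; adjusted p = 0.0863 without cytokines replicate 2). Eng, the TGFβ co-receptor, was at 1265 to 1511 without and 821 to 1105 CPM with cytokines (log2 change -0.54 ± 0.14, adjusted p = 0.0182; adjusted p = 0.0977 without cytokines replicate 1, lost without any 1 of 6 libraries). Ecscr, S1pr1 and Tm4sf1 did not pass (adjusted p = 0.218, 0.76 and 0.241).

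Of 7 testable capillary genes of 10 listed 4 fell and none rose (median -1.24). Esm1, the tip-cell and fenestrated-capillary proteoglycan, was at 2718 and 2452 CPM untreated, 2681 and 2087 with NMMA alone, 809.7 and 1037 with the cytokines and 967 and 1119 with the cytokines and NMMA (log2 change -1.34 ± 0.15, adjusted p = 1.18e-05). The fatty acid binding protein Fabp4 was at 3821 and 3618 CPM untreated, 3858 and 2963 with NMMA alone, 1397 and 1447 with the cytokines and 1090 and 2109 with the cytokines and NMMA (log2 change -1.24 ± 0.19, adjusted p = 0.000267). Gpihbp1 was at 935 to 1497 without and 360.4 to 813 CPM with cytokines (log2 change -0.97 ± 0.25, adjusted p = 0.0249; adjusted p = 0.154 without cytokines replicate 2, lost without any 1 of 4 libraries). The factor Nkx2-3 was at 66.2 to 84.7 without and 4.94 to 54.8 CPM with cytokines (log2 change -1.25 ± 0.32, adjusted p = 0.0165; adjusted p = 0.0931 without cytokines with NMMA replicate 2, lost without any 1 of 3 libraries). Rgcc and Col13a1 were at 282 to 439 without and 172 to 444 CPM with cytokines and 96.6 to 460.0 without and 116 to 356 CPM with cytokines (adjusted p = 0.882 and 0.9). Of 6 testable arterial genes Hey1, a Notch target, fell, at 97.2 to 169 without and 34 to 143 CPM with cytokines (log2 change -1.13 ± 0.25, adjusted p = 0.00594), and Gja4 (connexin 37) rose, at 198 and 70.3 CPM untreated, 52.6 and 46.5 with NMMA alone, 518 and 425 with the cytokines and 561 and 309 with the cytokines and NMMA (log2 change 2.47 ± 0.34, adjusted p = 0.00142), mainly in the mural-marker cells (544 against 66.5 CPM). Efnb2 and Unc5b were at 109.9 to 184 without and 22.8 to 173 CPM with cytokines and 92.8 to 174 without and 52.2 to 153 CPM with cytokines (adjusted p = 0.0972 and 0.0626, or 0.0331 and 0.00803 with the block). The vein factor Nr2f2 was at 75.1 to 121 without and 9.87 to 73 CPM with cytokines (log2 change -1.76 ± 0.30, adjusted p = 0.000657) and, without cytokines, at 154 against 15.6 CPM in the mural-marker and the other cells. Ephb4 and Vwf were at 38.5 to 66.1 without and 20.1 to 64.2 CPM with cytokines and 17.3 to 53.5 without and 14.8 to 29.5 CPM with cytokines (adjusted p = 0.463 and 0.283).

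Of the VEGF, Notch, Tie and apelin genes, 12 of 22 testable of 25 listed fell and 1 rose (median -0.76). The 12 include Esm1, Hey1 and Tek, already given as lower in other lists above. The potassium channel subunit Kcne3 was at 159.7 and 153 CPM untreated, 282 and 152 with NMMA alone, 44.4 and 17.2 with the cytokines and 68.4 and 27.2 with the cytokines and NMMA (log2 change -2.40 ± 0.34, adjusted p = 0.00035). Flt4, VEGF receptor 3, was at 190.5 to 248 without and 105 to 133 CPM with cytokines (log2 change -0.84 ± 0.18, adjusted p = 0.00408). The Notch ligands Dll1 and Jag2 were at 16.1 to 50 without and 2.87 to 14.8 CPM with cytokines (log2 change -1.97 ± 0.59, adjusted p = 0.0454; adjusted p = 0.216 without cytokines replicate 2, lost without any 1 of 5 libraries) and at 17.9 to 57.7 without and 4.56 to 24.7 CPM with cytokines (log2 change -1.93 ± 0.51, adjusted p = 0.0203; adjusted p = 0.117 without NMMA replicate 1, lost without any 1 of 5 libraries). Apln, the apelin peptide of tip cells, was at 13.5 and 42.2 CPM untreated, 20.7 and 26.8 with NMMA alone, 9.87 and 37.3 with the cytokines and 0 and 0 with the cytokines and NMMA (log2 change -3.29 ± 0.94, adjusted p = 0.0336; adjusted p = 0.174 without cytokines with NMMA replicate 2, lost without any 1 of 6 libraries), and with the cytokines and NMMA, where it had 0 UMIs, was at least 6.61-fold lower than untreated (adjusted p = 0.175 without cytokines with NMMA replicate 2, lost without any 1 of 3 libraries). Angpt2, which loosens vessels through Tie2, rose, at 327 and 291 CPM untreated, 293 and 252 with NMMA alone, 459 and 603 with the cytokines and 419.7 and 422 with the cytokines and NMMA (log2 change 0.71 ± 0.16, adjusted p = 0.00716), although not under total-UMI scaling (adjusted p = 0.053). Notch1 and Hes1 were at 273 to 361 without and 287 to 395 CPM with cytokines and 276 to 448 without and 141 to 341 CPM with cytokines (adjusted p = 0.921 and 0.262).

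Endothelial transcription factors fell in 7 and rose in 1 of 27 testable genes (median -0.29). Klf6 was the one that rose, at 144 and 162 CPM untreated, 149.7 and 188 with NMMA alone, 425 and 477 with the cytokines and 447 and 484 with the cytokines and NMMA (log2 change 1.51 ± 0.16, adjusted p = 5.06e-06). The lower ones included Sox18, Nr2f2 and Nkx2-3 above and Nr2f1, at 25 to 50 without and 4.94 to 31.9 CPM with cytokines (log2 change -1.35 ± 0.41, adjusted p = 0.0421; adjusted p = 0.19 without NMMA replicate 1, lost without any 1 of 5 libraries), and Ets1 and Hif1a were at 322 to 502 without and 287 to 538 CPM with cytokines and 289 to 362 without and 328 to 513 CPM with cytokines (adjusted p = 0.557 and 0.2). Of 19 testable BMP and TGFβ genes 4 fell and 1 rose (median -0.42), and the 4 include Eng, already given above. Bmpr2 was at 422 to 558 without and 256 to 356 CPM with cytokines (log2 change -0.70 ± 0.17, adjusted p = 0.00963; adjusted p = 0.0693 without untreated replicate 2, lost without any 1 of 3 libraries). The ligand Bmp6 was at 19.1 to 68.9 without and 11.5 to 15.9 CPM with cytokines (log2 change -1.68 ± 0.44, adjusted p = 0.0177; adjusted p = 0.12 without cytokines replicate 2, lost without any 1 of 6 libraries). Tgfb2 was at 14.3 to 38.5 without and 0 to 5.74 CPM with cytokines (log2 change -2.94 ± 0.59, adjusted p = 0.00249). Bmpr1a was at 19.7 to 30.8 without and 59 to 109.5 CPM with cytokines (log2 change 1.61 ± 0.27, adjusted p = 0.000609) and sat mainly in the mural-marker cells (98.5 against 17.1 CPM). The targets Id1 and Id3 were at 957 to 1619 without and 716 to 1315 CPM with cytokines and 2045 to 2308 without and 1277 to 2224 CPM with cytokines (adjusted p = 0.111 and 0.501, the former 0.00754 with the block).

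Matrix and junction genes fell in smaller numbers. Of 22 testable basement membrane and matrix genes of 24 listed 5 fell and 1 rose (median -0.50). The gene that rose, Timp3 (chr10:86300372-86349506), which inhibits metalloproteases and blocks VEGF receptor 2, was at 716 and 822 CPM untreated, 649.9 and 864 with NMMA alone, 5643 and 5183 with the cytokines and 4576 and 6135 with the cytokines and NMMA (log2 change 2.82 ± 0.16, adjusted p = 2.48e-09). It rose in both sets of cells, to 4340 against 6046 CPM from 815 against 771 CPM in the mural-marker and the other cells. Sparcl1 was at 995 to 1242 without and 356 to 647 CPM with cytokines (log2 change -1.26 ± 0.18, adjusted p = 0.000134). The laminin chain Lama5 was at 39.3 to 58.9 without and 15.9 to 24.7 CPM with cytokines (log2 change -1.37 ± 0.31, adjusted p = 0.00591; adjusted p = 0.0503 without cytokines replicate 2). Col15a1 was at 25.3 to 59.7 without and 2.87 to 9.12 CPM with cytokines (log2 change -2.66 ± 0.50, adjusted p = 0.00143). Igfbp3 was at 1288 to 2979 without and 933 to 1913 CPM with cytokines (log2 change -0.91 ± 0.22, adjusted p = 0.0188; adjusted p = 0.112 without cytokines replicate 1, lost without any 1 of 5 libraries). Igfbp7 was at 3078 to 6155 without and 2504 to 4567 CPM with cytokines (adjusted p = 0.616). Mgp, matrix Gla protein, was at 10201 and 8183 CPM untreated, 4379 and 4701 with NMMA alone, 740.5 and 1539 with the cytokines and 3832 and 1078 with the cytokines and NMMA (adjusted p = 0.0883). Of 14 testable junction genes the plakoglobin gene Jup fell, at 242 to 365 without and 138 to 143 CPM with cytokines (log2 change -1.05 ± 0.18, adjusted p = 0.000722), as did Cgnl1 at 38.5 to 74.6 without and 13.7 to 31.6 CPM with cytokines (log2 change -1.28 ± 0.31, adjusted p = 0.00959; adjusted p = 0.0769 without untreated replicate 2), while Ctnnb1 and Gja1 were at 688 to 766 without and 415 to 775 CPM with cytokines and 335 to 389.7 without and 328 to 488 CPM with cytokines (adjusted p = 0.148 and 0.53, the former 0.0428 with the block).

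Glycolysis genes rose in 11 of 17 testable genes (median 0.78), 7 under total-UMI scaling, and none fell. Pfkfb3, the activator of glycolytic flux in endothelium, was at 17.3 and 18.3 CPM untreated, 39.8 and 17.9 with NMMA alone, 770.2 and 692 with the cytokines and 333 and 597 with the cytokines and NMMA (log2 change 4.67 ± 0.26, adjusted p = 3.69e-09). Hk2 was at 0 to 7.15 without and 41.1 to 115 CPM with cytokines (log2 change 4.35 ± 0.43, adjusted p = 1.56e-06) and mainly in the mural-marker cells (102 against 15 CPM). Hk1 was at 216 to 242 without and 388 to 597 CPM with cytokines (log2 change 0.99 ± 0.16, adjusted p = 0.000451). The lactate exporter Slc16a3 was at 261 to 311 without and 445 to 948 CPM with cytokines (log2 change 1.18 ± 0.22, adjusted p = 0.00136). Ldha and Pgam1 were at 1234 to 1701 without and 1609 to 2286 CPM with cytokines and 536 to 829.8 without and 556 to 1600 CPM with cytokines (adjusted p = 0.0526 and 0.297, or 0.00923 and 0.00976 with the block). Of 15 testable transport genes 2 rose and 3 fell, beside 7.99% higher and 4.60% lower over all genes, counts too small to set the list apart. The 2 include Slc2a1 and the 3 include Fabp4 and Gpihbp1, already counted in other lists above. The glucose transporter Slc2a1 was at 309 to 456 without and 485 to 1012 CPM with cytokines (log2 change 0.97 ± 0.24, adjusted p = 0.0158; adjusted p = 0.0633 without NMMA replicate 2, lost without any 1 of 2 libraries). The amino acid transporter chain Slc3a2 was at 142 to 196 without and 238 to 383 CPM with cytokines (log2 change 0.79 ± 0.19, adjusted p = 0.0115; adjusted p = 0.0671 without NMMA replicate 1, lost without any 1 of 2 libraries), neither called under total-UMI scaling. Fabp5 was at 579.6 to 881 without and 242 to 454 CPM with cytokines (log2 change -0.93 ± 0.19, adjusted p = 0.00363). The hormone receptors Insr and Igf1r were at 59.7 to 97.2 without and 29.6 to 89 CPM with cytokines and 50 to 134 without and 74.7 to 128 CPM with cytokines (adjusted p = 0.37 and 0.985).

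Genes of hemostasis and vessel tone changed in part, beside 7.99% higher and 4.60% lower over all genes. Of 13 testable hemostasis genes 3 rose: the protein C receptor Procr, at 92.4 to 135 without and 123 to 319 CPM with cytokines (log2 change 1.06 ± 0.25, adjusted p = 0.0113; adjusted p = 0.099 without cytokines replicate 2, lost without any 1 of 2 libraries), and the prostaglandin enzymes Ptgs2 and Ptges. Ptgs2 was at 3.85 and 18.3 CPM untreated, 0 and 1.79 with NMMA alone, 350.5 and 129 with the cytokines and 13.7 and 29.5 with the cytokines and NMMA (log2 change 4.33 ± 0.77, adjusted p = 0.00658; adjusted p = 0.183 without cytokines with NMMA replicate 2). Ptges was at 1.79 to 5.63 without and 9.87 to 82.1 CPM with cytokines (log2 change 3.61 ± 0.57, adjusted p = 0.000727; adjusted p = 0.0867 without cytokines replicate 2). Neither prostaglandin gene had a UMI in the cells with at most 1 mural gene in any condition. Plaur, Entpd1 and Anxa2 did not pass (adjusted p = 0.0667, 0.281 and 0.878, the first 0.0168 with the block). Of 15 testable vasoactive genes 4 fell and none rose, and the 4 include Nos3 and Apln, already counted in other lists above. The endothelin receptor Ednrb was at 1302 to 2127 without and 769.5 to 1232 CPM with cytokines (log2 change -0.71 ± 0.19, adjusted p = 0.0228; adjusted p = 0.137 without NMMA replicate 1, lost without any 1 of 5 libraries). The angiotensin-converting enzyme Ace was at 12.7 to 32.2 without and 2.27 to 9.87 CPM with cytokines (log2 change -1.74 ± 0.51, adjusted p = 0.0343; adjusted p = 0.181 without cytokines with NMMA replicate 2, lost without any 1 of 6 libraries), while the adrenomedullin co-receptor Ramp3 was at 372 to 620.4 without and 479.5 to 706 CPM with cytokines (adjusted p = 0.637).

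Immediate-early genes were mixed, with 3 higher and 2 lower of 15 testable, beside 7.99% higher and 4.60% lower over all genes, counts too small to set the list apart. Zfp36, which destabilizes cytokine mRNA, was at 43 to 76 without and 152 to 331 CPM with cytokines (log2 change 1.88 ± 0.25, adjusted p = 6.35e-05). Jun and Junb were at 518 to 710.4 without and 854 to 935 CPM with cytokines (log2 change 0.49 ± 0.16, adjusted p = 0.0485; adjusted p = 0.237 without untreated replicate 1, lost without any 1 of 7 libraries) and at 535 to 741 without and 744 to 1190 CPM with cytokines (log2 change 0.56 ± 0.16, adjusted p = 0.034; adjusted p = 0.148 without untreated replicate 1, lost without any 1 of 5 libraries), and neither was called under total-UMI scaling. Fosb was at 21.2 to 39.4 without and 4.94 to 11.3 CPM with cytokines (log2 change -1.82 ± 0.42, adjusted p = 0.00736; adjusted p = 0.0514 without untreated replicate 2). Dusp1 was at 217 to 305 without and 132 to 198 CPM with cytokines (log2 change -0.61 ± 0.18, adjusted p = 0.0369; adjusted p = 0.205 without untreated replicate 2, lost without any 1 of 6 libraries). Jund and Ier3 were at 404 to 453 without and 479 to 712 CPM with cytokines and 1456 to 2429 without and 2209 to 5979 CPM with cytokines (adjusted p = 0.178 and 0.153, the latter 2.31e-06 with the block). Of 17 cell cycle genes 3 could be tested, and the nucleotide enzyme Tyms was at 8.94 to 21.2 without and 14.8 to 50.2 CPM with cytokines (log2 change 1.38 ± 0.40, adjusted p = 0.0295; adjusted p = 0.388 without cytokines replicate 2, lost without any 1 of 5 libraries), with Pcna and Ccnd2 at 40.4 to 136 without and 64.2 to 132 CPM with cytokines and 162 to 224 without and 89 to 205 CPM with cytokines (adjusted p = 0.629 and 0.326).

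The strongest decreases were those of low-abundance genes, several of which sat in the mural-marker cells. Higd1b, a pericyte gene and 1 of the 7 that define the mural-marker cells, was at 63.5 and 53.5 CPM untreated, 55.8 and 46.5 with NMMA alone, 0 and 0 with the cytokines and 4.56 and 4.54 with the cytokines and NMMA (log2 change -5.57 ± 0.57, adjusted p = 4.22e-06, or 0.107 without barcodes that held 4 or more macrophage or mesenchymal genes). The smooth muscle genes Myl9 and Tagln, without cytokines at 37.1 against 0 CPM and 76.7 against 1.3 CPM in the mural-marker and the other cells, were lower with cytokines, Myl9 by 28.5 times (counting interval 4.92 to 1147) (against untreated alone, adjusted p = 0.187 without cytokines replicate 2, lost without any 1 of 5 libraries) and Tagln with log2 change -3.55 ± 0.55, adjusted p = 0.000308. Aspn was at 85.2 against 0 CPM there (log2 change -3.71 ± 0.74, adjusted p = 0.00599; adjusted p = 0.0595 without cytokines with NMMA replicate 2) and Wnt5a at 33.8 against 0 CPM (log2 change -4.16 ± 1.19, adjusted p = 0.0395; adjusted p = 0.154 without cytokines with NMMA replicate 2, lost without any 1 of 6 libraries). Of the 7 mural genes 3 fell and none rose (median -1.10), beside 4.60% lower over all genes, and with the block 3 fell and 1 rose. This list was chosen after the data were seen and defines the mural-marker cells, so its counts are a description. Decreases read in both sets of cells included Limch1, at 75.1 to 121 without and 2.87 to 22.8 CPM with cytokines (log2 change -3.12 ± 0.33, adjusted p = 4.22e-06), the desaturase gene Scd2, at 57.2 to 84.4 without and 0 to 25 CPM with cytokines (log2 change -3.12 ± 0.43, adjusted p = 8.89e-05), and Exoc3l2, at 46.4 to 86.6 without and 0 to 14.8 CPM with cytokines (log2 change -3.54 ± 0.56, adjusted p = 0.000674). The guidance receptor Robo3 was lower by 26.5 times (counting interval 4.56 to 1068), Nrep by 28.5 times (counting interval 4.92 to 1147) and Rftn2 by 10 times (counting interval 2.6 to 85.5) (adjusted p = 0.115 without untreated replicate 1, lost without any 1 of 4 libraries). Nptx1 was at 7.15 to 32.4 without and 0 to 14.8 CPM with cytokines (log2 change -3.58 ± 0.95, adjusted p = 0.02; adjusted p = 0.101 without NMMA replicate 1, lost without any 1 of 4 libraries).

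The largest decreases against untreated, in order of log2 change with its SE, rested on few UMIs. With the cytokines they included Higd1b (-7.73 ± 1.01), Myl9 (-6.16 ± 1.55), Scd2 (-4.25 ± 0.71), Rcsd1 (-3.92 ± 0.94), Limch1 (-3.91 ± 0.51), Pald1 (-3.90 ± 0.89), Htra3 (-3.81 ± 1.05) and Tln2 (-3.78 ± 0.93), beside the hormone gene Sst, which the rule used. The fitted values of genes with 0 UMIs in 1 group depend on the default prior count of edgeR's fit and are no bounds. The SE worked back from such a value is no measure of its precision. By counts, Higd1b was at least 10.6-fold and Myl9 at least 3.58-fold lower. The calls of 5 of these genes were lost in sets of 7 libraries, Rcsd1 (adjusted p = 0.269 without cytokines replicate 2, lost without any 1 of 2 libraries), Pald1 (adjusted p = 0.0942 without untreated replicate 1, lost without any 1 of 3 libraries), Htra3 (adjusted p = 0.232 without untreated replicate 1, lost without any 1 of 4 libraries) and Tln2 (adjusted p = 0.152 without untreated replicate 1, lost without any 1 of 3 libraries) beside Myl9.

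With the cytokines and NMMA the largest decreases were Apln, Nptx1, Nrep, Robo3, Aspn, Heyl, Tgfb2, Rgs2, St8sia6 and Tbxa2r. By counts Nptx1 was at least 6.08-fold, Nrep at least 5-fold and Robo3 at least 4.65-fold lower than untreated. Aspn was lower by 52.5 times (counting interval 9.21 to 2096), the Notch target Heyl by 27.4 times (counting interval 4.69 to 1101), Tgfb2 by 22.5 times (counting interval 3.83 to 910.4), Rgs2 by 22 times (counting interval 3.73 to 889), St8sia6 by 20.4 times (counting interval 3.44 to 826) and Tbxa2r, the thromboxane receptor, by 16.9 times (counting interval 4.49 to 142). Calls lost in sets of 7 libraries were those of Nptx1 (adjusted p = 0.122 without cytokines with NMMA replicate 2, lost without any 1 of 2 libraries), Nrep (adjusted p = 0.125 without cytokines with NMMA replicate 2), Robo3 (adjusted p = 0.228 without cytokines with NMMA replicate 2, lost without any 1 of 4 libraries), Aspn (adjusted p = 0.162 without cytokines with NMMA replicate 2), Heyl (adjusted p = 0.395 without untreated replicate 1, lost without any 1 of 5 libraries), St8sia6 (adjusted p = 0.192 without untreated replicate 2, lost without any 1 of 3 libraries) and Tbxa2r (adjusted p = 0.109 without cytokines with NMMA replicate 2). Among the increases, Fam26f, an interferon-induced channel gene, had 0 UMIs without cytokines and was at least 138-fold higher (adjusted p = 0.0294, or 0.178 with the block; adjusted p = 0.201 without cytokines replicate 2, lost without any 1 of 2 libraries), mainly in the mural-marker cells (229.8 against 10.7 CPM).

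In the 149 cells with at most 1 mural gene fewer members of most lists could be tested and passed. That fit required 5 such cells a library, where 10 were required otherwise. In replicates 1 and 2, 9 and 11 were left with the cytokines and 7 and 16 with the cytokines and NMMA. Over all 4153 genes tested there, 296 were higher and 121 lower. The immunity-related GTPases gave 9 higher of 9, the guanylate-binding proteins 6 of 7, the antiviral genes 24 of 26 and the JAK, STAT, IRF and SOCS genes 11 of 14. Chemokines and cytokines gave 5 higher of 12, stress genes 5 of 19, glycolysis genes 6 of 15 and death genes 4 of 10, and no receptor or adaptor gene of 5, hemostasis gene of 7 or nitric oxide gene of 6 passed. Of the 25 further endothelial genes 6 were lower and 2 higher there, of 18 VEGF, Notch, Tie and apelin genes 7 lower and 1 higher, of 23 transcription factors 3 lower and 1 higher, of 7 capillary genes 2 lower, and of 16 matrix genes 5 lower and 1 higher.

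**Figure D4:**
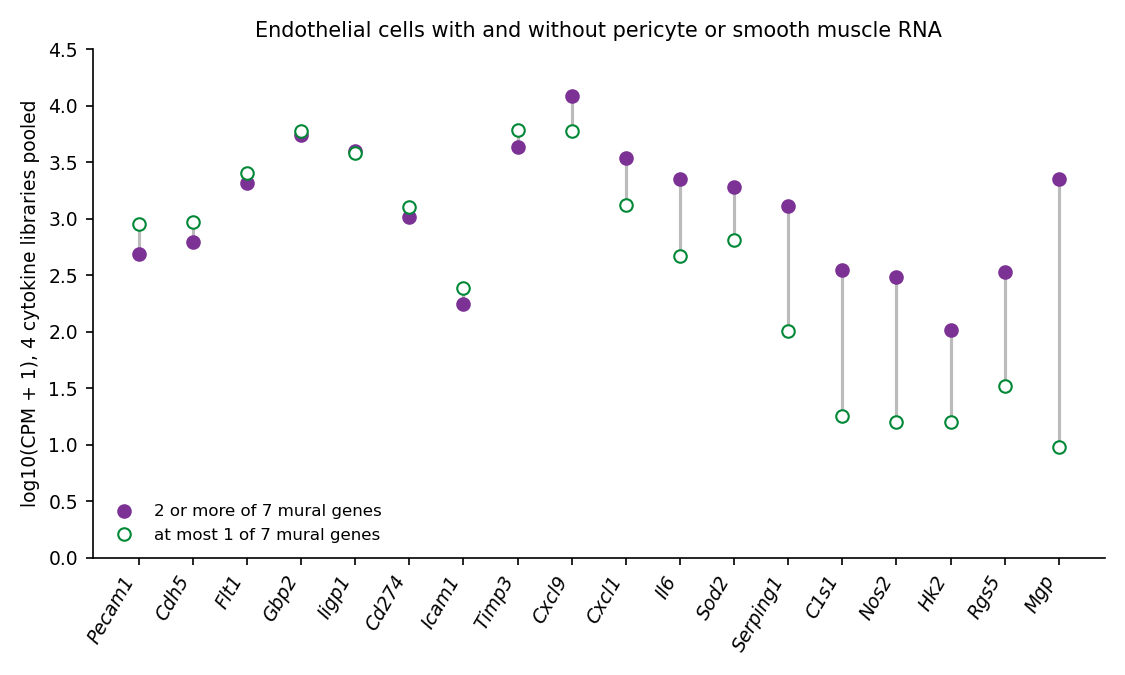
Level of 18 genes as log10(CPM + 1), without TMM scaling, over the pooled endothelial cells of the 4 cytokine libraries, in cells with UMIs of 2 or more mural genes (filled) and of at most 1 (open). Endothelial markers, Gbp2, Iigp1, Cd274, Icam1 and Timp3 lie close together, while C1s1, Nos2, Hk2, Rgs5 and Mgp are higher in the mural-marker cells.

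Blocking nitric oxide synthesis under cytokines changed little that this design could resolve. Between the cytokines and the cytokines with NMMA edgeR called 0 of 7547 genes (0%), with a smallest adjusted p of 0.0771 and 376 genes at an unadjusted p under 0.05. DESeq2 called 4 (Ptgs2, Rarres2, Ctgf and Ptp4a3), and edgeR with the replicate block called 12 (Rgs5, Cxcl9, Hilpda, Rarres2, Kcnj8, Ctgf, Ankrd37, Ptp4a3, H2-Ab1, Gm26917, Cd74 and Smad7), genes named here for that reason after their values were seen. Cxcl9 was at 5702 and 7807 CPM with the cytokines and 11110 and 16633 with the cytokines and NMMA (log2 difference -1.04 ± 0.24, adjusted p = 0.57, or 0.00177 with the block), and Rgs5, a pericyte gene, at 188 and 132 CPM with the cytokines and 469.9 and 282 with the cytokines and NMMA (-1.23 ± 0.33, adjusted p = 0.648, or 0.0156). Both genes were lower without the inhibitor in each replicate. Ptgs2 was at 350.5 and 129 CPM with the cytokines and 13.7 and 29.5 with the cytokines and NMMA (3.26 ± 0.67, adjusted p = 0.57, or 0.186). Without cytokines with NMMA replicate 2, the contrast gave 21 calls, and without cytokines replicate 2 it gave 3.

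The genes that the study follows for nitric oxide stood as follows in the endothelial cells. Nos2 was at 74 and 184 CPM with the cytokines and 155 and 372 with the cytokines and NMMA (log2 difference -1.01 ± 0.50, adjusted p = 1.0), lower without NMMA in both replicates. Hmox1 was at 93.8 and 138 CPM with the cytokines and 392 and 166 with the cytokines and NMMA (-1.19 ± 0.42, adjusted p = 0.952) and Ddit3 at 69.1 and 77.5 CPM with the cytokines and 119 and 95.3 with the cytokines and NMMA (-0.50 ± 0.30, adjusted p = 1.0). Neither was higher with the cytokines alone. Hspa1a was at 44.4 and 115 CPM with the cytokines and 59.3 and 59 with the cytokines and NMMA (0.52 ± 0.38, adjusted p = 1.0), Gbp2 at 5801 and 5858 CPM with the cytokines and 6333 and 6828 with the cytokines and NMMA (-0.17 ± 0.39, adjusted p = 1.0) and Irf1 at 1323 and 1137 CPM with the cytokines and 830.4 and 1071 with the cytokines and NMMA (0.37 ± 0.25, adjusted p = 1.0). An SE of this size leaves room for differences that 2 libraries a group cannot show. NMMA alone against untreated gave 0 calls (0%) in edgeR, 0 in DESeq2 and 0 with the block, with 144 genes at an unadjusted p under 0.05 and a smallest adjusted p of 1. Hmox1 was at 61.6 and 109.7 CPM untreated and 206 and 193 with NMMA alone (1.20 ± 0.39, adjusted p = 1).

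The response of the endothelial cells was then set against that of the β-cells of the same libraries, 6420 barcodes chosen on insulin, as the interaction of cell class and cytokine arm with library as a block. Of 13280 genes, 461 (3.47%) changed in a more positive and 523 (3.94%) in a more negative way in endothelial cells (286 and 1058 under total-UMI scaling, and 192 and 223 by limma on the differences within libraries). Ttc39b went from 23.8 to 261 CPM in endothelial cells and 47 to 52 CPM in β-cells (log2 difference of responses 3.42 ± 0.24, adjusted p = 3.75e-42, limma adjusted p = 0.012). Wars, the tryptophan tRNA synthetase that interferon induces, went from 39.1 to 744 CPM in endothelial cells and 53.2 to 222 CPM in β-cells (2.43 ± 0.22, adjusted p = 3.01e-26, limma adjusted p = 0.0239). Both classes raised Wars, by different factors. Man2a1, a Golgi mannosidase, went from 49.6 to 127 CPM in endothelial cells and 9.4 to 3.72 CPM in β-cells (3.03 ± 0.29, adjusted p = 4.76e-23, limma adjusted p = 0.0139). The growth factor Pdgfa went from 323 to 757 CPM in endothelial cells and 36.3 to 24.7 CPM in β-cells (1.95 ± 0.18, adjusted p = 4.10e-23, limma adjusted p = 0.0374). Col4a1 went from 1580 to 1373 CPM in endothelial cells and 9.34 to 1.7 CPM in β-cells (2.48 ± 0.21, adjusted p = 2.47e-29, limma adjusted p = 0.0357). For Col4a1, an endothelial product, the few UMIs in β-cell barcodes fell while the endothelial level did not pass the test.

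In the other direction, the costimulatory receptor Cd40 went from 47.9 to 137 CPM in endothelial cells and 0.69 to 79.8 CPM in β-cells (-5.08 ± 0.30, adjusted p = 8.26e-60, limma adjusted p = 0.0108). Tnfaip2 went from 134 to 217 CPM in endothelial cells and 0.34 to 15.6 CPM in β-cells (-4.73 ± 0.30, adjusted p = 2.16e-52, limma adjusted p = 0.0146). The tetraspanin Cd9 went from 512 to 458 CPM in endothelial cells and 3.02 to 27.9 CPM in β-cells (-3.21 ± 0.20, adjusted p = 9.01e-54, limma adjusted p = 0.0158). Litaf went from 305 to 543 CPM in endothelial cells and 9.9 to 126 CPM in β-cells (-2.65 ± 0.19, adjusted p = 1.67e-41, limma adjusted p = 0.0146). These genes were already expressed in untreated endothelial cells and rose in β-cells from a low level. The GTPase-like gene 9930111J21Rik2 went from 29.4 to 128 CPM in endothelial cells and 0.0731 to 44.7 CPM in β-cells (-6.89 ± 0.44, adjusted p = 8.28e-51, limma adjusted p = 0.00243).

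Macrophages (280 barcodes, a comparison added after the data were seen) allowed 7824 genes to be tested, of which 165 (2.11%) changed in a more positive and 56 (0.716%) in a more negative way in endothelial cells. The ubiquitin ligase gene Neurl3 went from 40.5 to 642 CPM in endothelial cells and 134 to 70.6 CPM in macrophages (4.88 ± 0.28, adjusted p = 6.86e-15, limma adjusted p = 0.0019), so it rose in one class and fell in the other. Psmb8 went from 81.8 to 1520 CPM in endothelial cells and 584 to 1441 CPM in macrophages (2.90 ± 0.19, adjusted p = 2.90e-13, limma adjusted p = 0.00211). Bst2 went from 148 to 1627 CPM in endothelial cells and 1461 to 2306 CPM in macrophages (2.80 ± 0.20, adjusted p = 9.38e-13, limma adjusted p = 0.00425). H2-Q7 went from 94.7 to 1351 CPM in endothelial cells and 432 to 1000 CPM in macrophages (2.61 ± 0.20, adjusted p = 5.86e-12, limma adjusted p = 0.00472). For these interferon genes the level without cytokines was higher in macrophages, and the levels with cytokines lay closer together. Cd274 went from 5.22 to 1199 CPM in endothelial cells and 48.9 to 547 CPM in macrophages (4.17 ± 0.36, adjusted p = 1.85e-10, limma adjusted p = 0.0019). Fabp5 went from 715 to 378 CPM in endothelial cells and 1043 to 2584 CPM in macrophages (-2.28 ± 0.20, adjusted p = 1.85e-10, limma adjusted p = 0.00869). The ectonucleotidase Entpd1, Lrrc8c and Rgl1 did not pass the test in endothelial cells and rose in macrophages, Entpd1 going from 68.2 to 52.2 CPM in endothelial cells and 83.8 to 261 CPM in macrophages (-2.06 ± 0.29, adjusted p = 4.42e-06, limma adjusted p = 0.00846). Lrrc8c went from 124 to 129 CPM in endothelial cells and 3.96 to 56.9 CPM in macrophages (-3.93 ± 0.55, adjusted p = 4.42e-06, limma adjusted p = 0.0115). Rgl1 went from 67.6 to 65.9 CPM in endothelial cells and 17.2 to 118 CPM in macrophages (-2.77 ± 0.41, adjusted p = 1.19e-05, limma adjusted p = 0.0366). Without untreated replicate 2 this comparison gave 132 calls in place of 221.

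**Figure D5:**
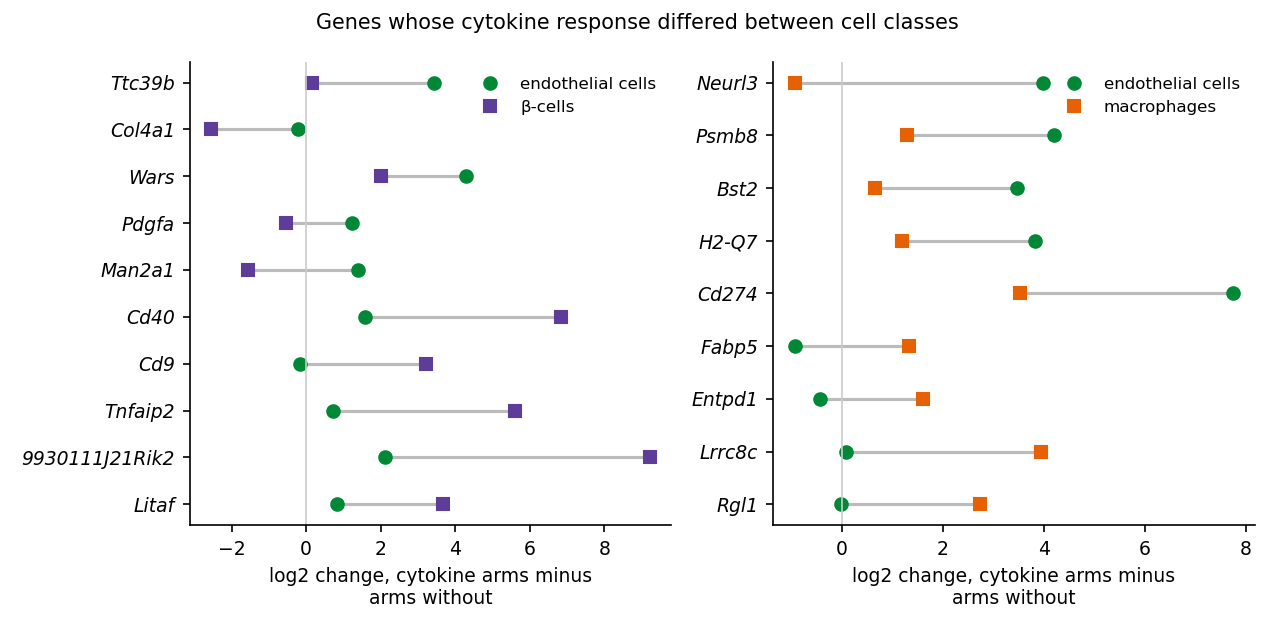
Log2 change with cytokines in endothelial cells (circles) and in β-cells or macrophages (squares) for 19 genes among those with the smallest adjusted p in each direction of each class difference. The joined points differ by -6.89 to 3.42 for β-cells and by -3.93 to 4.88 for macrophages.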

How the data were processed

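Islets were dispersed and the RNA of single cells was counted with a 10x Genomics 3' assay. Per the labels, the deposited files are counts made by the authors with Cell Ranger on mm10 (versions 3.0.0 and 6.0.0 in the submitters' processing notes): UMI counts of each gene in each cell barcode, not normalized and not filtered by the study's limits. The 17426 barcodes are those in the files. The gene lists differed between replicates (31053 and 32285 genes), and the 30406 gene identifiers in both were kept, which hold at least 99.62% of the endothelial UMIs of every library. The conditions were taken from the sample labels, and doses, ages and pooling from the study's methods. No column was left without a sample.

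UMIs of the endothelial cells were summed per library (Python 3.11.15, R 4.3.3) and tested with edgeR 4.0.16 (filterByExpr, TMM, glmQLFit with robust dispersion, glmQLFTest, Benjamini-Hochberg over all genes tested, threshold 0.05), with 4 groups of 2 libraries in 1 model, since cells are not replicates and the study's Wilcoxon test over cells was not used. CPM are per 1000000 TMM-scaled UMIs, except where mural-marker cells are set against the other cells, whose pooled UMIs were not TMM-scaled. Log2 changes use edgeR's default prior count. A prior count of 2 applied only to the log2 CPM behind the limma test and the correlations of deviations. Sums of 215596 to 689305 UMIs mean that filterByExpr left out genes with few UMIs. β-cells had at least 10% of UMIs in insulin genes and under 2% in other hormones, and macrophages and mesenchymal cells at least 4 of 7 marker genes. Class differences were tested as an interaction with library as a block, with limma 3.58.1 on the differences within libraries and DESeq2 1.42.0 on the sums as alternatives. No doublet caller was run, and cells with macrophage, mesenchymal or mural markers were left out as alternatives. For shares of cells, each cell was thinned to 4000 UMIs, which left out 18 endothelial cells, and intervals are exact Clopper-Pearson at 95%. Folds against 0 UMIs are set against 3 counts over the group, ratios with 1 to 3 counts have exact counting intervals, and both cover counting error only. The edgeR tests of the cytokine arms, of NMMA alone and of the class interaction with β-cells were run on simulated counts with known changes. The other statistics were not. Gene positions are from the GRCm38 annotation and promoters from RefSeq (GRCm38.p6).

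The replicate number pairs libraries, since each pool of 10 mice was divided over all 4 conditions per the study's methods. Deviations from the condition means correlated by 0.219 to 0.389 (Pearson's r across genes, which are not independent) for the 6 pairs of conditions. P-values of the main fit rest on the spread between the 2 libraries of a condition, shared over conditions and moderated over genes, and leave out this pairing. Those of the class interaction rest on the spread left between the sums of the classes after blocking on library. For Cd40 against β-cells that edgeR test gave an adjusted p of 8.26e-60, and limma on the differences within libraries gave 0.0108. The cells, gene lists and tests were chosen with earlier results of these data known. Genes named are the 7 rule genes, the 10 largest called increases and decreases of each contrast that agreed in sign between replicates, up to 4 called higher, 4 called lower and 2 uncalled genes of each list, the 5 genes with the smallest adjusted p in each direction of each class difference, and genes of the nitric oxide response, and other genes are said to be chosen after their values were seen. A few genes that this rule names are not reported here. Alternatives were size factors by RLE, total UMIs, no low-count filter, the replicate block, DESeq2, other thresholds of the rule, hormones under 2%, 7 other endothelial genes as the rule, and leaving out each library in turn, with the mural and limma alternatives added after seeing the data.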

Additional observations from a re-analysis of the deposited data

Results flagged for a closer look

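The endothelial response to cytokines differed from that of β-cells or macrophages, by the interaction test in edgeR, for 19 named genes, given here as the log2 difference, followed by the log2 change in endothelial cells and in the other class. Against β-cells the endothelial change was larger for Ttc39b at 3.42 (3.42 and 0.15), Man2a1 at 3.03 (1.38 and -1.56), Wars at 2.43 (4.29 and 2.02) and Pdgfa at 1.95 (1.24 and -0.54), and less negative for Col4a1 at 2.48 (-0.21 and -2.54). It was smaller for 9930111J21Rik2 at -6.89 (2.12 and 9.21), Cd40 at -5.08 (1.59 and 6.84), Tnfaip2 at -4.73 (0.72 and 5.61), Cd9 at -3.21 (-0.16 and 3.22) and Litaf at -2.65 (0.83 and 3.66).

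Against macrophages the endothelial change was larger for Neurl3 at 4.88 (3.98 and -0.92), Cd274 at 4.17 (7.74 and 3.52), Psmb8 at 2.90 (4.21 and 1.29), Bst2 at 2.80 (3.46 and 0.66) and H2-Q7 at 2.61 (3.83 and 1.20). It was smaller for Lrrc8c at -3.93 (0.08 and 3.95), Rgl1 at -2.77 (-0.01 and 2.74), Fabp5 at -2.28 (-0.93 and 1.33) and Entpd1 at -2.06 (-0.43 and 1.60). All 19 differences kept their sign by limma on the differences within libraries.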

How the results depend on the processing

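Leaving out each library in turn gave 266 to 491 calls for cytokines against untreated (458 with all libraries; 266 without untreated replicate 1), 290 to 527 for cytokines with NMMA against untreated (503), 0 to 21 between cytokines with and without NMMA (0), 0 to 1 for NMMA alone (0), and 132 to 250 for the difference from macrophages (221). With the replicate block the first 3 gave 756, 767 and 12 calls, and no low-count filter gave 690 for cytokines against untreated, 26 between cytokines with and without NMMA and 7 for NMMA alone. Without the cells that held 2 mural genes the calls were 215, 252 and 1, and 417 for the 4 cytokine libraries against the others (950), and DESeq2 gave 4 and 619 for the last 2 contrasts. For the difference from β-cells limma gave 415 calls in place of 984. The causes of these shifts were not tested, beyond the fewer genes tested (4153) and cells left when mural-marker cells were removed. All other counts stayed within 1.5 times. Of 252 named values none changed sign under any alternative. With a library left out, 1801 values of named genes kept their call status, 190 lost a call and 24 gained one, and the block gained 18 and lost 1. The comparison with mesenchymal cells was not run, since the 4 cytokine libraries held 1, 5, 6 and 6 of them and 10 were required. Depth decides which genes could be tested: Vcam1 and Sele, with 10 and 3 UMIs in all libraries together, could not.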

Other observations

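Some genes outside the named set were read after the values were seen and are given as values only. B2m, the light chain of MHC class I, was at 1083 to 1261 without and 6240 to 8295 CPM with cytokines (log2 change 2.61 ± 0.15, adjusted p = 2.83e-09), and H2-K1 at 707 to 858 without and 3851 to 5209 CPM with cytokines (log2 change 2.53 ± 0.15, adjusted p = 3.41e-09). Emcn, a capillary sialomucin, was at 1780 and 654 CPM untreated, 1109 and 619 with NMMA alone, 474 and 227 with the cytokines and 278 and 241 with the cytokines and NMMA (adjusted p = 0.0631), with replicate 1 and replicate 2 far apart. Rarres2, which encodes the chemoattractant chemerin, was at 75.1 and 134 CPM untreated, 126 and 111 with NMMA alone, 489 and 741 with the cytokines and 1798 and 2079 with the cytokines and NMMA (adjusted p = 8.03e-09), and with cytokines at 1860 against 51.5 CPM in the mural-marker and the other cells.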
